A study of Mus musculus with 14 samples.

Results

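The comparison set 1 RNA-seq library of LEPC cells that overexpress miR-93-5p against 1 RNA-seq library of the same line labelled scr, and these 2 libraries were chosen by their labels from the 14 samples of the series. LEPC is the name the labels give a mouse cell line of strain C57BL/6, and all samples carry the entry of 3 passages. The miR-93-5p group carries the overexpressed microRNA and the scr group its control, and a further RNA-seq library, called mutant here, carries a mutated miR-93-5p. The labels give neither the vector and promoter used nor whether each line was 1 clone. Each condition had 1 library, so no difference has a replicate check, no test was possible and no p-value is given.

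A microRNA guides Argonaute proteins to mRNAs, mostly through pairing of its seed near the 5′ end with sites in the 3′ untranslated region, and this lowers the stability or the translation of the mRNA. miR-93-5p is made from an intron of Mcm7 as part of the miR-106b-25 cluster and shares its seed with the miR-17 family, which is known for promoting proliferation and for reported targets such as Cdkn1a, E2f1 and Tgfbr2. The series text presents the microRNA as a driver of liver cancer, and the comparison with scr asks how the mRNAs of the line differ under its overexpression. Mature microRNAs are not measured by these libraries and Mcm7 had no value here, so the overexpression itself could not be checked.

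The sequences below are the mature mouse microRNAs that share the seed of miR-93-5p, shown because the seed sets which sites a microRNA can pair with. They are from RefSeq on GRCm38.p6, and capitals mark the seed, bases 2 to 8. The search found 7 mature microRNAs with the seed AAAGUGC.
mmu-miR-93-5p: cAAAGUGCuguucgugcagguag
mmu-miR-106b-5p: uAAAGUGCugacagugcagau
mmu-miR-17-5p: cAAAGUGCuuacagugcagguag
mmu-miR-20a-5p: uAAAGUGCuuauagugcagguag
mmu-miR-20b-5p: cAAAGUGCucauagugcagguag
mmu-miR-106a-5p: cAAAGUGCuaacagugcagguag
mmu-miR-6383: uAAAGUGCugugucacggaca
Aligned from the 5′ end, miR-20b-5p has the same base as miR-93-5p at 20 positions, miR-17-5p, miR-20a-5p and miR-106a-5p at 19, miR-106b-5p at 16 and miR-6383 at 10. Mir93 lies on chromosome 5 with Mir106b (mature miR-93-5p at chr5:138165574-138165596, minus strand), Mir17 and Mir20a lie on chromosome 14, and the other 3 genes lie on chromosome X.

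The files give FPKM, fragments scaled to the length of the transcript model and to library depth, with a lower and an upper bound. Because each library was assembled alone, the same gene can have transcript models of different length in the 2 libraries, and a gene can then differ in FPKM without differing in fragments. A second measure, called implied fragments, was therefore read from the width of the deposited interval: it is the fragment number at which counting error alone has that width. It is not scaled by model length, but a model that covers less of the gene can also collect fewer fragments. It comes out too low where fragments are shared between isoforms. The 2 loci of a gene shared a median of 0.996 of their joint length over all genes. The median was 0.992 over the genes called higher below and 0.987 over those called lower. The share was smaller at some called genes, such as Csf1r (0.529), Ptpn22 (0.573), Hal (0.573) and Cnih4 (0.69). The miR-93-5p library held 16822 loci and 15301761 implied fragments, and the scr library 18328 loci and 14589704. Loci had a median span of 8563 bp in miR-93-5p and 7249 bp in scr. Of 18510 protein-coding genes, 8941 were matched to a locus in miR-93-5p and 9218 in scr, and 8598 had loci in both with a mean of at least 1 FPKM. The labels give no cell type. Krt18, a keratin of simple epithelia, was at 200.4 FPKM in miR-93-5p and 306 in scr, and Foxa2, a transcription factor of liver development, at 19.9 and 20.6. E-cadherin was at 1.52 and 30.7 FPKM, and of 45 hepatocyte genes only 11 had a locus in miR-93-5p and 19 in scr. None of 13 endothelial markers and none of 14 fibroblast and stellate cell markers had a locus in either library.

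A gene was called when it was at least 2-fold apart in FPKM plus 1, its deposited intervals did not overlap, and it was at least 2-fold apart the same way in scaled implied fragments plus 10. By that rule 127 of 8598 genes (1.48%) were higher and 199 (2.31%) were lower in miR-93-5p than in scr. The differences were larger among the lower genes, where 53 were at least 4-fold and 13 at least 8-fold apart, against 16 and 4 among the higher genes. The largest fold in FPKM plus 1 was 25.6 for a higher gene and 18.0 for a lower gene. Higher genes had a median of 13.5 FPKM in miR-93-5p and 4.23 in scr, and lower genes a median of 2.96 in miR-93-5p and 13.3 in scr, while all genes had medians of 15.7 and 15.4. In FPKM without the fragment measure, 259 genes (3.01%) were 2-fold higher and 335 (3.9%) 2-fold lower, and 255 (2.97%) and 323 (3.76%) of these had intervals apart. In implied fragments alone, 641 of 8379 genes (7.65%) were 2-fold higher and 667 (7.96%) 2-fold lower. Of the 594 genes 2-fold apart in FPKM, 268 (45.1%) were not 2-fold apart the same way in implied fragments, and 35 were 2-fold apart in the opposite direction.

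**Figure D1:**
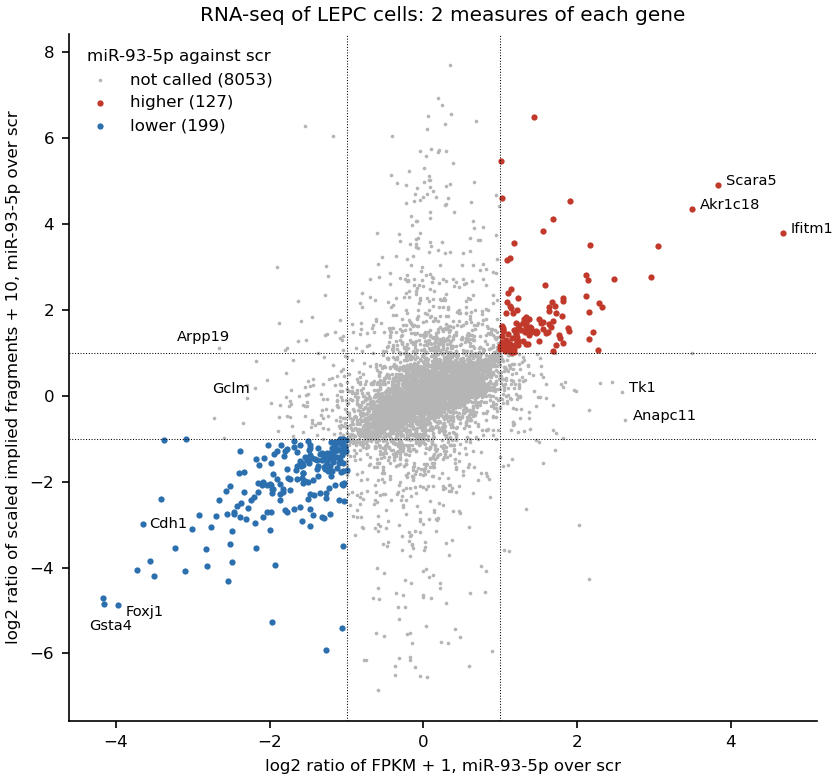
Each point is 1 of 8379 genes with both measures, with the log2 ratio of FPKM + 1 (miR-93-5p over scr) on the horizontal axis and the log2 ratio of scaled implied fragments + 10 on the vertical axis, and dotted lines at 2-fold. The 127 higher genes lie at the upper right and the 199 lower genes at the lower left, while Tk1, Anapc11 and Gclm are far apart in FPKM and not in fragments and Arpp19 lies in the opposite direction in fragments.

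Ifitm1 and Scara5 had the largest ratios of the higher genes. Ifitm1, an interferon-induced membrane protein that restricts the entry of viruses into cells, had 163 FPKM (deposited interval 154 to 172) in miR-93-5p and 5.41 (4.19 to 6.63) in scr, a log2 ratio of 4.68, with 1261 and 79.1 implied fragments. Scara5, a receptor for ferritin, had 29.9 FPKM (28.8 to 30.9) in miR-93-5p and 1.16 (0.92 to 1.41) in scr, and 3113 against 90.9 implied fragments. Both leading genes were above the median FPKM of all genes in miR-93-5p and below it in scr. Aqp5, a water channel of secretory epithelia, had 43.7 FPKM in miR-93-5p and 4.76 in scr. Cdh13, a cadherin anchored to the membrane by lipid, had 18.4 FPKM in miR-93-5p and 3.47 in scr. The creatine transporter Slc6a8 had 54.2 FPKM in miR-93-5p and 11.1 in scr. These carriers and surface proteins had log2 ratios of 2.96 (Aqp5), 2.12 (Cdh13) and 2.20 (Slc6a8), all with intervals far apart.

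Enzymes that make or remove signalling lipids and steroids were also among the 20 largest. Sphk1, which makes sphingosine-1-phosphate, had 25.6 FPKM (23.9 to 27.3) in miR-93-5p and 4.33 (3.72 to 4.93) in scr. Enpp2, the secreted enzyme autotaxin that makes lysophosphatidic acid, had 17.2 FPKM in miR-93-5p and 2.72 in scr. Both products act on cells through their own G protein-coupled receptors. Akr1c18, which inactivates progesterone, had 19.0 FPKM in miR-93-5p and 0.781 in scr, on 529 and 16 implied fragments. Inpp5j, an inositol phosphate 5-phosphatase, had 37.8 FPKM in miR-93-5p and 7.76 in scr. The lowest scr values of this set rest on few fragments, and the counting error of the log2 fragment ratio was 0.37 for Akr1c18 against a median of 0.069 over all genes.

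Of the remaining genes among the 20 largest, several encode intracellular signalling proteins. Rapgef3, the cyclic AMP-activated exchange factor of the GTPase Rap, had 14.1 FPKM in miR-93-5p and 2.38 in scr. Dclk1, a microtubule-associated kinase, had 6.34 FPKM in miR-93-5p and 0.662 in scr, and the tyrosine phosphatase Ptpn22 had 6.63 and 0.696. All 3 were low in scr, and their log2 ratios lay between 2.14 and 2.17. Cnih4, which helps receptors leave the endoplasmic reticulum, was the most abundant of the 20, at 166 FPKM in miR-93-5p and 33.7 in scr, with a smaller ratio of 1.05 in fragments. Cox7a1, a subunit of cytochrome c oxidase, had 11.5 FPKM in miR-93-5p and 1.88 in scr. Insyn1, Thada and Sertad4 had log2 ratios of 2.48, 1.89 and 1.88. The carboxylesterase Ces2g had 5.53 FPKM in miR-93-5p and 0.741 (0.23 to 1.25) in scr, where the wide interval gives only 8.42 implied fragments.

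**Figure D2:**
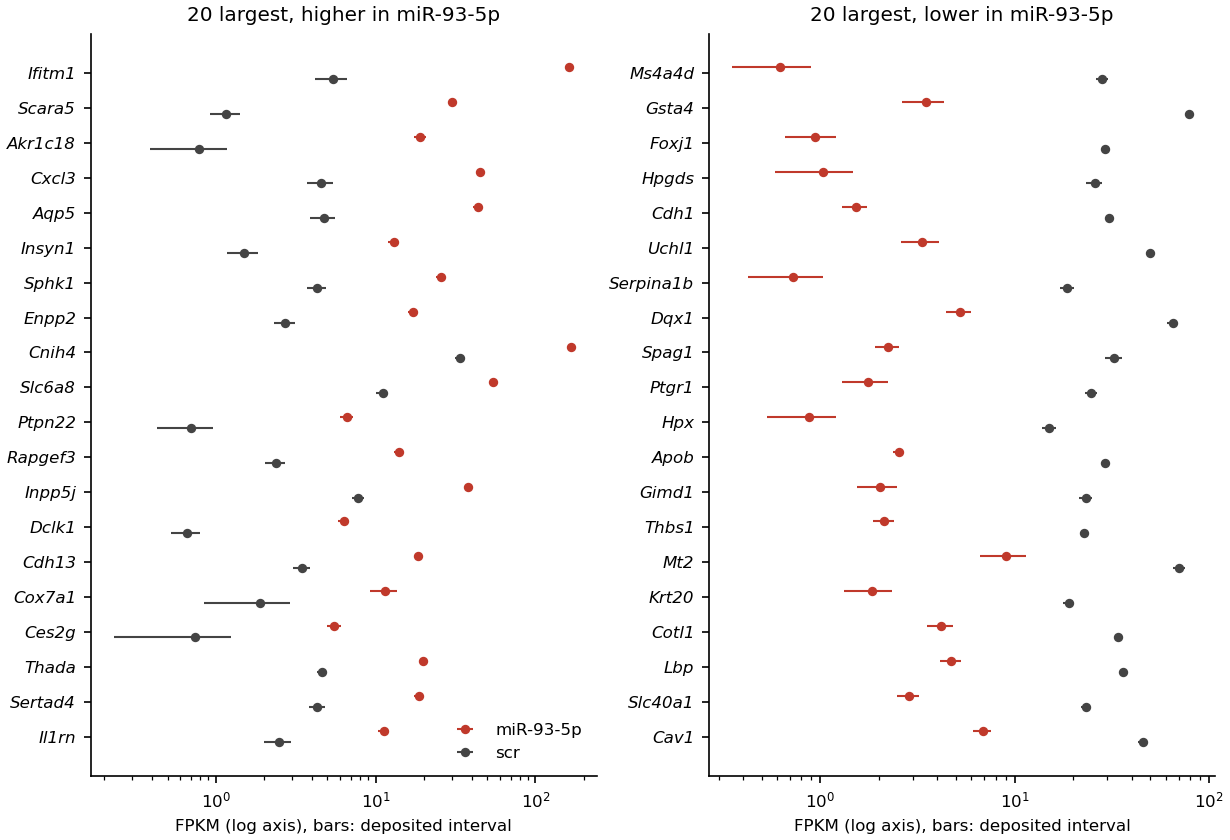
FPKM on a log axis for the 20 called genes with the largest ratio in each direction, with miR-93-5p in red above scr in dark grey and bars for the deposited interval of each library. Intervals of the 2 libraries are apart for every gene, from Ifitm1 (163 and 5.41 FPKM) to Il1rn (11.3 and 2.48) on the left and from Ms4a4d (0.624 and 28.3 FPKM) to Cav1 (6.87 and 45.6) on the right.

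Among the lower genes the largest ratio was that of Ms4a4d, a membrane protein of the MS4A family, at 0.624 FPKM (0.352 to 0.896) in miR-93-5p and 28.3 (26.2 to 30.3) in scr, a log2 ratio of -4.17 with 21.0 and 773 implied fragments. Its neighbour in the family, Ms4a4b, had 10.7 FPKM in scr and no locus in miR-93-5p. Gsta4, the glutathione transferase that clears the lipid peroxidation product 4-hydroxynonenal, had 3.5 FPKM (2.65 to 4.35) in miR-93-5p and 78.6 (75.2 to 82.0) in scr. Both named genes with a ratio were below the median of all genes in miR-93-5p and above it in scr. The prostaglandin D synthase Hpgds had 1.03 FPKM in miR-93-5p and 25.8 in scr, and Ptgr1, which inactivates prostaglandins and leukotrienes, had 1.76 and 24.8. Uchl1, a ubiquitin hydrolase best known from neurons, had 3.34 FPKM in miR-93-5p and 50 in scr. Slc40a1, which encodes the iron exporter ferroportin, had 2.86 FPKM in miR-93-5p and 23.4 in scr. The helicase-like Dqx1 (5.23 and 65 FPKM), the GTPase-domain gene Gimd1 (2.02 and 23.3) and the actin-binding Cotl1 (4.20 and 34.2) had log2 ratios of -3.41, -3.01 and -2.76. Cav1, the coat protein of caveolae, had 6.87 FPKM in miR-93-5p and 45.6 in scr.

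Plasma protein genes of the hepatocyte and their transcription factors were called lower for 5 of 11 measured genes (45.5%, against 2.31% of all genes). Hepatocytes secrete most plasma proteins under a network of factors that includes Hnf4a and Cebpa. Of 45 genes on the list, 11 had a locus in miR-93-5p and 19 in scr, and 11 were measured. None of the 11 was called higher and 5 were called lower, with a median log2 ratio of -0.872 in FPKM and -1.08 in fragments, against 0.0287 and 0 over all genes. Hnf4a had 7.22 FPKM (6.68 to 7.76) in miR-93-5p and 40.6 (39.0 to 42.3) in scr, and Cebpa had 5.17 (4.63 to 5.70) and 15.3 (14.4 to 16.3). Hemopexin (Hpx), which carries free heme, had 0.872 FPKM in miR-93-5p and 15.1 in scr. Haptoglobin (Hp), which binds free haemoglobin, had 1.14 FPKM in miR-93-5p and 9.63 in scr, and Apob, on which liver lipoproteins are built, had 2.54 and 29.1. Foxa2, Foxa3 (1.94 FPKM in miR-93-5p and 4.21 in scr) and the bile acid receptor Nr1h4 (3.33 and 2.67) were among the measured members that were not called. Summed FPKM of the list was 72.3 in miR-93-5p and 198 in scr. Alb (1.30 FPKM), Ttr (0.969), Fgb (1.82) and Ambp (2.47) had a locus in scr and none in miR-93-5p, so the library of scr cells itself held these plasma protein mRNAs at a low level. In bulk RNA, fewer cells with such a transcript and less of it in each cell cannot be told apart.

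Serpina1b and Lbp, which encode plasma proteins and are on none of the lists, were called lower too. Serpina1b, an alpha-1-antitrypsin gene, had 0.728 FPKM in miR-93-5p and 18.7 in scr, and its copy Serpina1a, a list member, had 18.3 FPKM in scr and no locus in miR-93-5p. The copies of this family are so alike that fragments cannot be assigned to 1 of them with certainty. Lbp, the lipopolysaccharide-binding protein of the acute phase, had 4.71 FPKM (4.11 to 5.31) in miR-93-5p and 36.1 (34.4 to 37.8) in scr. Of 11 measured complement and coagulation genes, protein C (Proc) was lower at 1.85 FPKM in miR-93-5p and 5.65 in scr, and the tissue factor inhibitor Tfpi was higher at 7.38 and 2.73. Each was 9.09% of the 11, against 2.31% of all genes called lower and 1.48% called higher. The median of the 11 was -0.451 in FPKM and -0.0299 in fragments.

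The promoter of Hpx is printed because Hpx had the lowest ratio of the hepatocyte list, and because its 300 bases held a match to the HNF4 core searched (CAAAGTC or its complement GACTTTG, both strands). The sequence is from RefSeq on GRCm38.p6, minus strand, chr7:105600067-105600366, with the bases from the transcription start onward in capitals.
Hpx promoter: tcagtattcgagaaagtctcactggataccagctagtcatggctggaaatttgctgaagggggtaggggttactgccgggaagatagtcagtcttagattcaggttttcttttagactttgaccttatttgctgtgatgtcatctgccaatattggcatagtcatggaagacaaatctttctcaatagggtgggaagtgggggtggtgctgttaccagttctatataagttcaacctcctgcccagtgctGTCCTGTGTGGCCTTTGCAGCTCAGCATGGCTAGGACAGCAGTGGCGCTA
A match was present in 6.25% of 96 promoters of higher genes, in 6.25% of 144 promoters of lower genes and in 3.94% of all 7009 promoters. The shares of higher and lower genes were thus equal, and Ces2g and Ptpn22 were among the higher genes with a match.

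Of the junction and epithelial genes some were called lower. E-cadherin (Cdh1), which holds epithelial cells together at adherens junctions, had 1.52 FPKM (1.29 to 1.74) in miR-93-5p and 30.7 (29.1 to 32.3) in scr, a log2 ratio of -3.65. Of 25 measured cell junction and epithelial genes 5 were called lower (20%, against 2.31% of all genes) and 1 higher (4%, against 1.48%). The median was -0.286 in FPKM and -0.352 in fragments. The lower genes Dsg2, Pkp2 and Ppl belong to desmosomes, the junctions that anchor intermediate filaments: Dsg2 had 2.96 FPKM in miR-93-5p and 16 in scr, Pkp2 had 8.54 and 20.6, and periplakin (Ppl) had 10.6 and 34.1. Pard6b, of the complex that sets epithelial polarity, had 2.67 FPKM in miR-93-5p and 7.83 in scr. The higher gene was Gja1, the gap junction protein connexin 43, at 10.7 FPKM (10.0 to 11.4) in miR-93-5p and 2.78 (2.39 to 3.16) in scr. Called junction genes thus lay in both directions. Among 13 measured genes of the epithelial to mesenchymal switch, 2 were called lower (15.4%, against 2.31% of all genes). Loxl2, an enzyme that crosslinks collagen, was among them at 1.22 FPKM in miR-93-5p and 3.64 in scr. None of the 13 was called higher, and fibronectin (Fn1) had 41.7 FPKM in miR-93-5p and 23.6 in scr with a fragment ratio of 0.06.

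The 4 measured keratins had log2 ratios below 0 in both measures, with medians of -1.06 in FPKM and -1.67 in fragments, and 1 of them was called lower. Krt20, a keratin of differentiated gut epithelium, had 1.84 FPKM (1.33 to 2.34) in miR-93-5p and 19.0 (17.7 to 20.2) in scr and was the called keratin. Krt8 had 229.7 FPKM in miR-93-5p and 658 in scr, yet 1945 and 2221 implied fragments, and log2 ratios of -1.51 in FPKM and -0.24 in fragments. Krt7 had 7.27 FPKM in scr and no locus in miR-93-5p. Krt19, the usual bile duct keratin, had 418 FPKM in miR-93-5p and no locus matched in scr. Of 11 measured biliary and progenitor markers 1 was higher (9.09%, against 1.48% of all genes) and 1 lower (9.09%, against 2.31%). Their medians were 0.393 in FPKM and 0.298 in fragments. Osteopontin (Spp1), a secreted protein abundant in bile duct cells, had 1076 FPKM (1066 to 1085) in miR-93-5p and 531 (507 to 554) in scr. Its log2 ratio was 1.02 in FPKM and 4.59 in fragments, so the measures were far apart, and with all ratios rescaled to a median of 0 its FPKM ratio of 0.99 was below the limit. Aqp1, a water channel of bile duct cells, had 7.98 FPKM in miR-93-5p and 17.4 in scr.

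**Figure D3:**
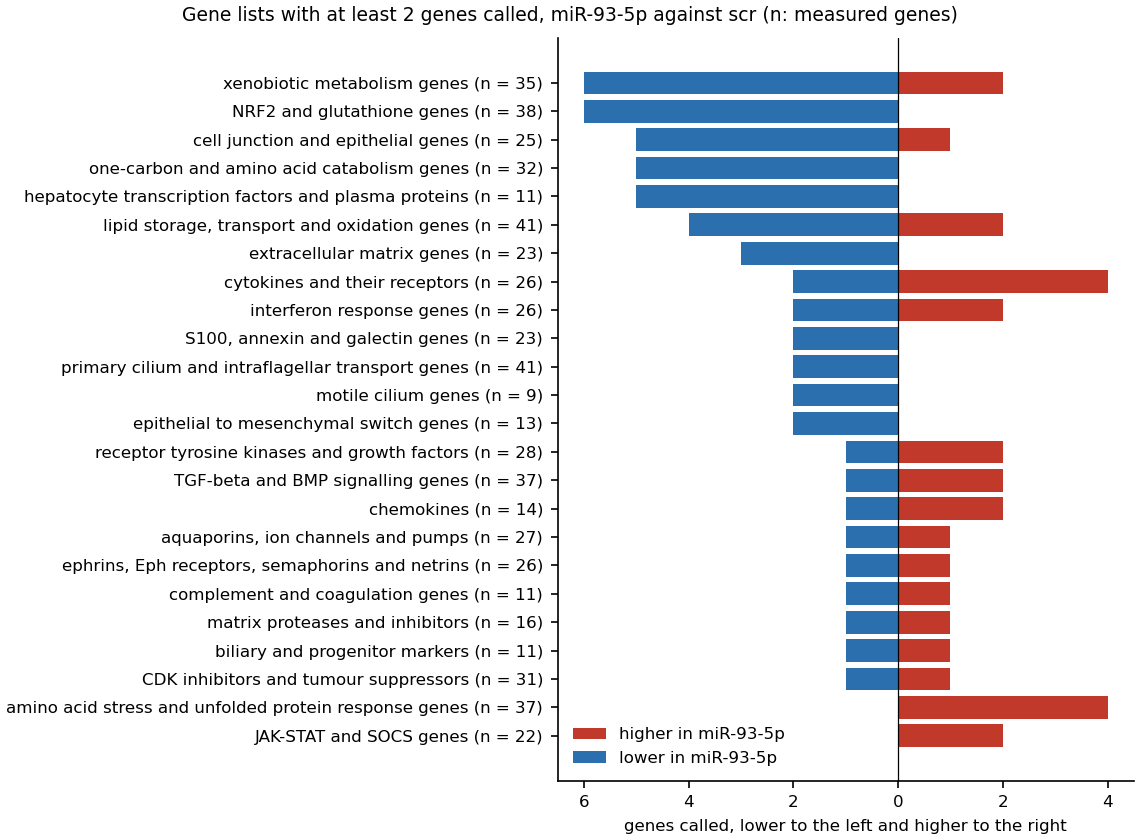
Number of genes called in miR-93-5p against scr for each gene list with at least 2 called genes, lower to the left in blue and higher to the right in red, with the number measured in brackets. NRF2 and glutathione genes (6 lower of 38) and hepatocyte genes (5 lower of 11) had no higher gene. Amino acid stress and unfolded protein response genes (4 higher of 37) had no lower gene. Of all measured genes 1.48% were called higher and 2.31% lower.

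Cilium genes included some of the largest differences, among a list that was hardly expressed. Foxj1, the transcription factor that switches on the motile cilium programme, had 0.935 FPKM (0.660 to 1.21) in miR-93-5p and 29.3 (27.9 to 30.8) in scr, with 46.3 and 1588 implied fragments. Spag1, which helps assemble ciliary dynein arms, had 2.23 FPKM (1.91 to 2.55) in miR-93-5p and 32.5 (29.2 to 35.7) in scr, with a fragment ratio of only -1.03. Of 50 motile cilium genes 9 had a locus in miR-93-5p and 11 in scr, and the axonemal dynein heavy chains searched, such as Dnah5 and Dnah11, had none in either. The 9 measured genes had a median of -0.294 in FPKM and -0.39 in fragments. The RFX factors that act with Foxj1 were not called, with Rfx2 at 5.42 FPKM in miR-93-5p and 7.95 in scr and Rfx3 at 3.35 and 3.96. Of 41 measured genes of the primary cilium, the sensory cilium of most cells, 2 were called lower (4.88%, against 2.31% of all genes) and none higher. Dync2li1, a subunit of the motor of retrograde transport in cilia, had 1.48 FPKM in miR-93-5p and 7.76 in scr, and Cep290, of the transition zone at the cilium base, had 2.99 and 7.44. The median of the 41 was -0.178 in FPKM. Among 7 measured microvillus genes Anks4b, a scaffold that links the tips of microvilli, had 2.38 FPKM (2.08 to 2.67) in miR-93-5p and 18.8 (17.9 to 19.7) in scr, and ezrin (Ezr) had 229 and 267.

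Genes of glutathione and of the antioxidant factor NRF2 were lower where they were called. Of 38 measured genes none was higher and 6 were lower (15.8%, against 2.31% of all genes), with a median of -0.429 in FPKM and -0.256 in fragments. Beside Gsta4, the metal-binding protein Mt2 had 9.04 FPKM (6.62 to 11.4) in miR-93-5p and 70.2 (65.1 to 75.3) in scr. Pgd, which makes NADPH in the pentose phosphate pathway, had 73.7 FPKM in miR-93-5p and 185 in scr. The glutathione transferases Gstm2 (3.82 and 10.4 FPKM) and Gstp1 (59.6 and 120.2) and the extracellular superoxide dismutase Sod3 (0.913 and 3.15) completed the 6. Gstp1 and Gstm2 have close copies, and their values are uncertain to that extent. Gsta3, a further alpha class transferase, had 31.4 FPKM in scr and no locus in miR-93-5p. For 2 well-known members the measures were apart: Gclm, which with its catalytic partner makes the precursor of glutathione, had 31.9 FPKM in miR-93-5p and 162 in scr with a fragment ratio of -0.05, and catalase (Cat) had 39.5 and 124 with a fragment ratio of 2.19. Neither was called.

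Enzymes and carriers that handle drugs, aldehydes and steroids were lower for 6 (17.1%, against 2.31% of all genes) and higher for 2 (5.71%, against 1.48%) of 35 measured genes. Abcc2, the pump that exports conjugates into bile, had 3.76 FPKM (3.42 to 4.10) in miR-93-5p and 26.2 (25 to 27.4) in scr. Aldose reductase (Akr1b3) had 76.6 FPKM in miR-93-5p and 364 in scr, and carbonyl reductase (Cbr1) had 88.9 and 274. Both reductases were abundant in scr cells and had log2 ratios of -2.24 and -1.61 in FPKM. The retinaldehyde dehydrogenase Aldh1a1 had 19.0 FPKM in miR-93-5p and 87.9 in scr, and its close copy Aldh1a7 had 1.10 and 7.63. The dioxin receptor Ahr, a transcription factor that induces such enzymes, had 2.42 FPKM in miR-93-5p and 7.72 in scr. The 2 higher genes were Akr1c18 and Ces2g, described above, and the median of the list was -0.204 in FPKM and -0.0622 in fragments.

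Of 32 measured genes of one-carbon and amino acid catabolism 5 were called lower (15.6%, against 2.31% of all genes) and none higher, while the median was 0.0417 in FPKM and 0.048 in fragments. Hal, the histidase that opens histidine breakdown, had 0.571 FPKM (0.226 to 0.915) in miR-93-5p and 5.00 (4.43 to 5.58) in scr. Amdhd1, an enzyme of the same pathway, had 0.817 FPKM in miR-93-5p on only 4.23 implied fragments, and 9.58 in scr. The genes lie next to each other on chromosome 10. Glutamine synthetase (Glul) had 13.9 FPKM in miR-93-5p and 76.3 in scr, and Gldc, the decarboxylase of the glycine cleavage system, had 10.5 and 44.4. Aldh4a1, of proline breakdown, had 9.80 FPKM in miR-93-5p and 24.1 in scr.

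Lipid genes were called in both directions. Of 41 measured genes of lipid storage, transport and oxidation, 4 were lower (9.76%, against 2.31% of all genes) and 2 higher (4.88%, against 1.48%). The median was 0.269 in FPKM and 0.107 in fragments. Besides Apob, the fatty acid carrier Fabp5 had 76.9 FPKM in miR-93-5p and 217 in scr. The triglyceride synthase Dgat2 had 9.83 FPKM in miR-93-5p and 24.1 in scr, and the lipase Lipe had 1.82 and 6.81. Slc27a1, which takes up fatty acids, had 37.7 FPKM (35.7 to 39.7) in miR-93-5p and 10.2 (9.35 to 11.1) in scr. The lipid droplet coat Plin4 had 14.4 FPKM (13.3 to 15.4) in miR-93-5p and 6.62 (1.93 to 11.3) in scr, just past the limit and with a wide scr interval, and rescaling to a median of 0 put it below the limit at 0.98. In cholesterol and fatty acid synthesis 1 of 35 genes was called, and it was lower (2.86%, near the 2.31% of all genes). This was the squalene synthase Fdft1, at 19.3 FPKM in miR-93-5p and 55.3 in scr. The median of these 35 was -0.394 in FPKM and -0.301 in fragments, and the squalene epoxidase Sqle, at 44.8 and 98.5 FPKM, had a fragment ratio of -0.25.

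**Figure D4:**
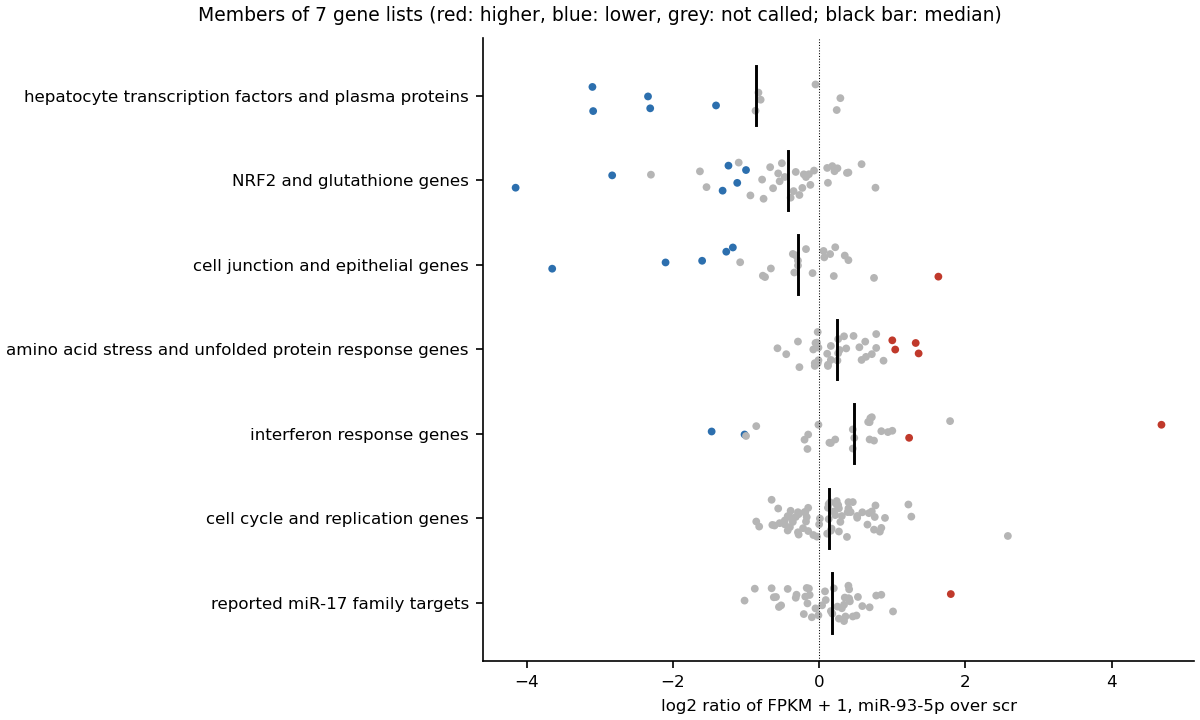
Log2 ratio of FPKM + 1 (miR-93-5p over scr) for each measured member of 7 gene lists, red for genes called higher, blue for genes called lower, grey for the others, with a black bar at the list median. Hepatocyte genes had a median of -0.872 and interferon response genes of 0.472, and no cell cycle gene was called although Tk1 lay at 2.58.

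Chemokines and cytokines were called in both directions. Cxcl3, which attracts neutrophils through the receptor CXCR2, had 44.9 FPKM (42.5 to 47.2) in miR-93-5p and 4.55 (3.71 to 5.39) in scr. Ccl7, which attracts monocytes, had 113 FPKM (108 to 118) in miR-93-5p and 39.0 (36.3 to 41.8) in scr. In the other direction Cxcl16, a membrane-bound chemokine that also acts as a scavenger receptor, had 1.51 FPKM in miR-93-5p and 13.3 in scr. Over 14 measured chemokines 2 were higher (14.3%, against 1.48% of all genes) and 1 lower (7.14%, against 2.31%). The median was 0.204 in FPKM and -0.0655 in fragments. Cxcl5 had 254 FPKM in miR-93-5p and 83.2 in scr with a fragment ratio of 0.26 and was not called.

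Among 26 measured cytokines and receptors 4 were higher (15.4%, against 1.48% of all genes) and 2 lower (7.69%, against 2.31%). Il1rn, the antagonist that blocks the interleukin-1 receptor, had 11.3 FPKM (10.4 to 12.2) in miR-93-5p and 2.48 (2.01 to 2.95) in scr. Tnfsf15, a ligand of the TNF family, had 4.99 FPKM in miR-93-5p and 0.854 in scr. The receptors Tnfrsf9 (11.1 and 4.52 FPKM) and Osmr (3.02 and 0.893), the receptor of oncostatin M, were higher too. Tnfsf9, the ligand of Tnfrsf9, was lower at 7.71 FPKM in miR-93-5p and 23.5 in scr, so ligand and receptor were called in opposite directions. Csf1r, the growth factor receptor of macrophages, had 1.16 FPKM (0.885 to 1.43) in miR-93-5p and 7.63 (7.05 to 8.21) in scr. It was the measured gene of 15 leukocyte markers, the summed level of those markers was 1.16 FPKM in miR-93-5p and 9.19 in scr, and Ptprc, Adgre1, Itgam and Lyz2 had no locus in either library. Sigirr, an inhibitory receptor of the interleukin-1 family, had 59.3 FPKM in miR-93-5p and 16.8 in scr and was chosen after its values were seen.

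Interferon response genes included the most strongly higher gene and lower genes too. Beside Ifitm1, Bst2, which tethers virus particles to the cell, had 102 FPKM (96.2 to 107) in miR-93-5p and 42.8 (39.3 to 46.2) in scr. Ifit2 had 5.80 FPKM in miR-93-5p and 17.9 in scr, and the transcription factor Irf5 had 1.08 and 3.22. Of 26 measured genes 2 were thus higher (7.69%, against 1.48% of all genes) and 2 lower (7.69%, against 2.31%). The median was 0.472 in FPKM and 0.165 in fragments. The sister gene Ifitm3 had 293 FPKM in miR-93-5p and 84.1 in scr, with a fragment ratio of 0.28. Ifi27 had 7.95 FPKM (6.73 to 9.17) in miR-93-5p and no locus in scr. In the JAK-STAT list 2 of 22 genes were called, both higher (9.09%, against 1.48% of all genes). The feedback inhibitor Socs1 had 4.52 FPKM in miR-93-5p and 1.19 in scr, and Stat5a had 17.8 and 7.48. That list had a median of 0.0681 in FPKM. Stat2, a factor of the type I interferon response, had 3.25 FPKM in miR-93-5p and 7.48 in scr and was not called, at the 2-fold limit in FPKM and with a fragment ratio of -0.86. None of 14 antigen presentation genes and none of 28 NF-kB genes was called, with medians of 0.452 and 0.159 in FPKM.

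Amino acid stress and unfolded protein response genes, taken as 1 list, were higher where they were called. The amino acid stress response, driven by the factor ATF4, raises amino acid uptake and synthesis when amino acids run short or proteins misfold. Of 37 measured genes 4 were higher (10.8%, against 1.48% of all genes) and none lower, with medians of 0.249 in FPKM and 0.253 in fragments. Trib3, a pseudokinase target of ATF4, had 9.28 FPKM (8.45 to 10.1) in miR-93-5p and 2.99 (2.52 to 3.46) in scr. Chac1, which degrades glutathione, had 5.97 FPKM in miR-93-5p and 2.38 in scr. The secreted stress signal Gdf15 had 48.7 FPKM in miR-93-5p and 19.0 in scr. The cationic amino acid transporter Slc7a1 had 13.4 FPKM in miR-93-5p and 6.21 in scr, at the 2-fold limit, and was below it at 0.97 after rescaling to a median of 0. None of 22 heat shock and chaperone genes was called, and their median was -0.138.

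Growth factor signalling was called at single genes. Egfr, the receptor of epidermal growth factor, had 2.54 FPKM (2.21 to 2.87) in miR-93-5p and 9.47 (8.86 to 10.1) in scr, while its relative Erbb3 had 7.25 (6.84 to 7.67) and 2.41 (2.17 to 2.65). The lymphatic growth factor Vegfc had 12 FPKM in miR-93-5p and 4.96 in scr, on a wide scr interval of 2.37 to 7.54. The 28 measured receptors and growth factors had a median of 0.117, with 2 higher (7.14%, against 1.48% of all genes) and 1 lower (3.57%, against 2.31%). Tgfb3 had 7.44 FPKM (6.79 to 8.09) in miR-93-5p and 1.65 (1.33 to 1.97) in scr, while Tgfb1 had 33.9 and 16.7 and fell short of the limit at 0.98. Of 37 measured TGF-beta and BMP genes 2 were higher (5.41%, against 1.48%) and 1 lower (2.7%, against 2.31%), with a median of 0.194. Spred2, an inhibitor of the Ras to MAP kinase pathway, had 12.8 FPKM in miR-93-5p and 4.95 in scr. Ankrd1, a target of the Hippo pathway factor YAP, had 125 FPKM (122 to 128) in miR-93-5p and 44.3 (42.5 to 46.2) in scr. It was the 1 called gene of 26 measured Hippo genes (3.85%, against 1.48% of all genes called higher). Gli3, a factor of Hedgehog signalling, had 6.20 FPKM in miR-93-5p and 2.39 in scr. The guidance cue Sema3c had 99.4 FPKM in miR-93-5p and 42.9 in scr, and Sema4a had 1.89 and 8.02. None of 30 measured Wnt genes and none of 40 PI3K-Akt-mTOR genes was called. Spred2 was the 1 called gene of 28 measured MAP kinase phosphatase, Sprouty and immediate early genes (3.57%, against 1.48% of all genes called higher). The median of the 28 was 0.475 in FPKM and 0.437 in fragments.

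Of 23 measured members of the matrix list 3 were called lower (13%, against 2.31% of all genes) and none higher (against 1.48%). Thrombospondin 1 (Thbs1), a matrix protein that restrains blood vessel growth, had 2.13 FPKM (1.86 to 2.40) in miR-93-5p and 22.7 (21.6 to 23.8) in scr. The laminin chain Lamb3, of basement membranes, had 5.44 FPKM in miR-93-5p and 26.1 in scr, and Efemp2, needed for elastic fibres, had 10.0 and 31.0. Pcolce2, which helps mature collagen (17.2 and 5.55 FPKM), and Aebp1, a collagen-binding protein (24.1 and 7.26), are not on that list and were called higher. Over the 23 listed genes the median was -0.0447 in FPKM and 0.0975 in fragments, near the values of all genes. None of 8 measured integrins was called, with a median of 0.384. Of 16 proteases and their inhibitors Timp2 was the 1 higher gene (6.25%, against 1.48% of all genes). In that list 1 gene was lower (6.25%, against 2.31%), and the median was 0.414. Annexin Anxa6 (23 and 75.8 FPKM) and galectin Lgals2 (19.7 and 91.2) were the called genes among 23 measured S100, annexin and galectin genes. Both were lower (8.7% of that list, against 2.31% of all genes).

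Reported targets of the miR-17 family were called at shares near those of all genes. Of 57 listed targets 46 were measured, 1 was called higher (2.17%, against 1.48% of all genes) and none lower (against 2.31% of all genes), and the median log2 ratio was 0.17 in FPKM and 0.00242 in fragments. Cdkn1a, the p21 inhibitor of cyclin-dependent kinases, had 46.2 FPKM (31.2 to 61.3) in miR-93-5p and 34.5 (33.0 to 36.1) in scr, and the wide interval in miR-93-5p gives only 37.7 implied fragments against 1993 in scr, a ratio of -5.44 that cannot be read as RNA. E2f1 had 16.4 FPKM (15.4 to 17.5) in miR-93-5p and 22.5 (21.0 to 23.9) in scr, a ratio of -0.43. Tgfbr2, the type II receptor of TGF-beta, had 13.1 FPKM (12.3 to 13.9) in miR-93-5p and 14.4 (13.6 to 15.3) in scr. The intervals of Cdkn1a and of Tgfbr2 overlapped between the libraries, and those of E2f1 were apart, with a ratio below the 2-fold limit. Timp2, an inhibitor of matrix metalloproteinases, was the target called higher, at 209 FPKM (206 to 212) in miR-93-5p and 59.3 (57.7 to 60.8) in scr, on 21104 and 5693 implied fragments. Pdcd4, an inhibitor of translation, had 27.4 FPKM in miR-93-5p and 56.5 in scr with a fragment ratio of -0.64, and Smad4 had 13.1 and 24.8 with a fragment ratio of -1.14. Neither was called, since Pdcd4 missed the fragment limit and Smad4, at -0.88, the FPKM limit. The interleukin-6 co-receptor Il6st had 30.8 FPKM in miR-93-5p and 14.8 in scr, 2-fold higher in FPKM with a fragment ratio of 0.29.

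Lists of proliferation and chromatin genes held 0 to 2 called genes each, counts that at 1.48% and 2.31% of all genes called say little about lists of this size. None of 69 measured cell cycle and replication genes was called, and their median was 0.132 in FPKM and -0.0479 in fragments. Among 31 measured CDK inhibitors and tumour suppressors Socs1 was higher and Cdh1 lower, and Cdkn2c had 43.5 FPKM in miR-93-5p and 14.5 in scr with a fragment ratio of 0.50. Of 35 p53 response genes Gadd45b, a stress sensor, was lower at 7.98 FPKM in miR-93-5p and 25.1 in scr, and Mdm2 had 41.6 and 24.5. Bmf, which promotes cell death by binding BCL2 proteins, had 6.35 FPKM (5.90 to 6.80) in miR-93-5p and 32.3 (30.9 to 33.7) in scr and was the called gene of 31 measured apoptosis genes. No gene was called among 28 measured Polycomb and H3K27 enzymes, 36 H3K4 and H3K9 enzymes and readers, 14 DNA methylation genes and 27 microRNA machinery genes, whose medians were 0.0309, -0.072, 0.19 and 0.033. Nor was any called among 36 glycolysis and hypoxia genes and 23 constitutive genes, with medians of 0.125 and -0.005. Of 47 measured ribosomal protein genes Rpl18 was lower, at 219 FPKM in miR-93-5p and 1242 in scr, but these genes have many near-identical pseudogenes and the value is uncertain. Over the 50 lists, 1155 distinct genes were measured, 30 of them higher (2.6%, against 1.48% of all genes) and 56 lower (4.85%, against 2.31%), and 15 lists had no called gene.

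Some of the largest ratios in FPKM were below 2-fold in fragments. Fam189b had 52.5 FPKM in miR-93-5p and 3.78 in scr, a log2 ratio of 3.49, with a fragment ratio just under the limit at 0.98. Thymidine kinase (Tk1), which is high in dividing cells, had 161 FPKM (153 to 169) in miR-93-5p and 26.1 (24.7 to 27.4) in scr, yet 1599.7 and 1463 implied fragments. Anapc11, of the anaphase-promoting complex, had 128 FPKM in miR-93-5p and 20.1 in scr while its implied fragments were 807 and 1157. Both genes were thus far apart in FPKM and less than 2-fold apart in fragments. The surface protein Ly6a had 755 FPKM in miR-93-5p and 137 in scr, with a fragment ratio of 0.31, and the respiratory subunit Cox7a2 (440.1 and 88.3 FPKM) and Dpysl3 (71.3 and 15.2) had fragment ratios of 0.29 and -0.33. On the lower side the fragment ratios were -0.53 for 1700016C15Rik, -0.99 for Tma7, -0.63 for the splicing gene Lsm7, -0.05 for Gclm and 0.25 for the mRNA export gene Alyref. Arpp19, a phosphatase inhibitor of mitosis, had 33.4 FPKM in miR-93-5p and 216 in scr, and 1713 against 763 fragments, the opposite direction.

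A gene with no locus in a library has no ratio. At 5 FPKM or more, 7 of the 8941 genes matched in miR-93-5p had no overlapping locus in scr. In the other direction, 40 of the 9218 genes matched in scr had no overlapping locus in miR-93-5p. Both are small parts of the matched genes, and the scr library held more loci (18328 against 16822). The miR-93-5p genes were Ndufb10 (213 FPKM), Ndufaf3 (10.6), Ifi27, Scarf1 (5.44), Gpr141 (5.40), Csnk1g1 (5.11) and Orm3 (5.07). Ndufb10 is a subunit of respiratory complex I, which nearly every cell uses, so a missing locus can be a failed assembly and does not show that a gene was off. Those of scr included Gsta3, Rtl8b (26.5), Gm5544 (23.4), Serpina1a, Bcam (17.5), Dynlt1a (16.8) and Ermard (14.8). Cbr3 (9.71 FPKM) and Krt7 were also among the 40 and were chosen after their values were seen.

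Histone marks of the same cells, which the calls did not use, were set beside the genes at their start sites. H3K4me3 marks active promoters, H3K27me3 is laid down by Polycomb complexes at silent genes and H3K9me3 marks heterochromatin. A start site had a mark when a deposited peak lay within 1000 bp, and strand was known for 96 higher, 144 lower and 7009 of all genes. H3K4me3 was present in both conditions at 90.6% of higher genes, 80.6% of lower genes and 95.5% of all genes, and in neither at 7.29%, 16% and 4.04%. Most called genes with a start site thus had a peak in both conditions. A peak in miR-93-5p alone was present at 1 higher gene, Ifitm1, and at 3 lower genes, Ddc, Lgals2 and Pklr. A peak in scr alone was present at 1 higher gene, Ces2g, and at 2 lower genes, Fkbp5 and Ms4a4d. At all genes each kind came to 0.228%. The peak of miR-93-5p at Ifitm1 ran from 148153603 to 148158231 on mm9 chromosome 7, 4629 bp with a score of 2181.87. Gene starts here are those of the mm9 gene loci. The Ifitm1 peak began downstream of that start and did not cover it (gene locus at 148153120 to 148155724), and it ran beyond the 3′ end. The Ms4a4d peak of scr (chromosome 19, 11611239 to 11612441, score 82.5) covered the gene start at 11611291 where the lowest listed score is 50. Fkbp5, a chaperone of steroid receptors with 6.38 FPKM in miR-93-5p and 30.4 in scr, had an scr peak with a score of 368.28.

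The promoters of Ifitm1 and Ms4a4d are printed because these are the called genes with the largest ratio in each direction. Each also had an H3K4me3 peak within 1000 bp of its start in the condition with the higher RNA alone. The Ifitm1 peak began downstream of the start of the mm9 gene locus. The transcription starts of the printed sequences are those of RefSeq on GRCm38.p6. They were not placed on mm9, so the peaks were not compared with them. Both are from RefSeq on GRCm38.p6, plus strand, at chr7:140967826-140968125 and chr19:11536544-11536843, with the bases from the transcription start onward in capitals.
Ifitm1 promoter: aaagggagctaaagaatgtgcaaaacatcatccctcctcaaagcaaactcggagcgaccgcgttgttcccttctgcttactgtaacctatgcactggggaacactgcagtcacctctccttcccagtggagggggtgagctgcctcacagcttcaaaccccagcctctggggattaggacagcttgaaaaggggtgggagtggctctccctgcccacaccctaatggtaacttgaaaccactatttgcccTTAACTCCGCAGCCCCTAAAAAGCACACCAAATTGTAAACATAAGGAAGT
Ms4a4d promoter: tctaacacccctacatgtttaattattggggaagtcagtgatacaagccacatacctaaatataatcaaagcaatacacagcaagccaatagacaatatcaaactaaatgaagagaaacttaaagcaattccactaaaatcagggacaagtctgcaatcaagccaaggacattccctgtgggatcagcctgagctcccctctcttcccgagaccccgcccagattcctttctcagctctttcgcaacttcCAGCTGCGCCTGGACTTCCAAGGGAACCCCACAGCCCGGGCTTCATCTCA
The Ifitm1 sequence holds a match to the FOXA core searched (TGTTTAC or GTAAACA, both strands), which was in 4.17% of 96 promoters of higher genes, 6.25% of 144 of lower genes and 3.04% of all.

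**Figure D5:**
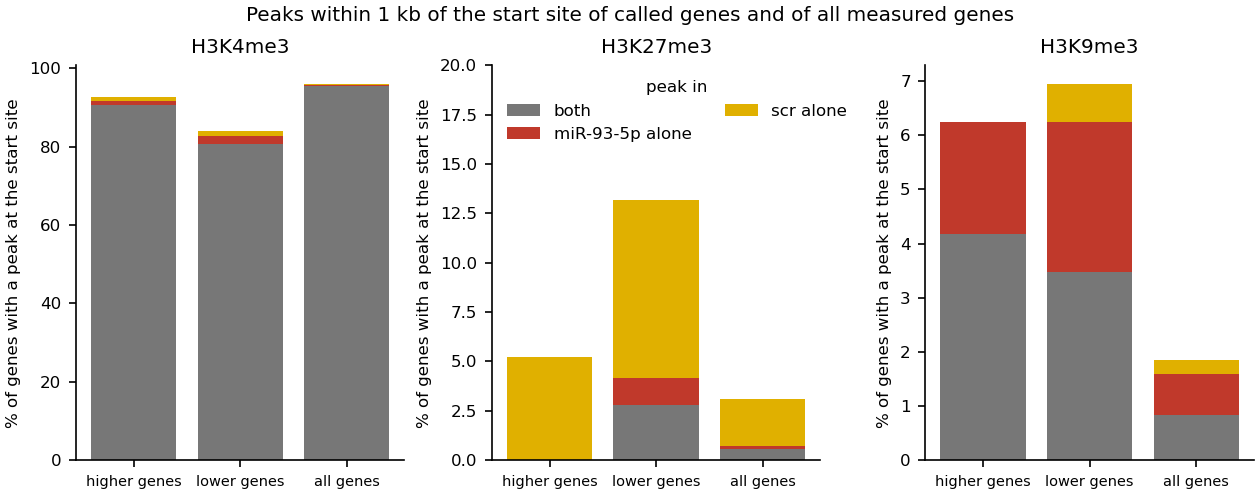
Share of genes with a peak within 1 kb of the start site for H3K4me3, H3K27me3 and H3K9me3, split into peaks in both conditions (grey), in miR-93-5p alone (red) and in scr alone (yellow), with a separate vertical scale for each mark. H3K27me3 in scr alone was at 5.21% of higher genes, 9.03% of lower genes and 2.41% of all genes.

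H3K27me3 was present at few genes, and mostly in scr alone. It was in scr alone at 5 higher genes (5.21%) and at 13 lower genes (9.03%), against 2.41% of all genes, and in miR-93-5p alone at no higher gene and at 2 lower genes, Cpne8 and Mlf1. The 13 included Mt2, the adenosine deaminase Ada (2.11 FPKM in miR-93-5p and 8.37 in scr), Efemp2 and Slc9a3r2 (5.33 and 21.4). By the calling rule itself, the 13 lower genes have more RNA in scr, the condition with the peak, and the 5 higher genes have more in miR-93-5p. These RNA directions were therefore fixed in advance and say nothing about the mark. None of these shares was tested. H3K9me3 in miR-93-5p alone was at 2 higher genes (2.08%) and 4 lower genes (2.78%), against 0.77% of all genes, and the 4 were Uchl1, Fermt1, Hspa2 and Pfn2. At Uchl1 the H3K9me3 peak of miR-93-5p spanned 67067314 to 67068828 on chromosome 5, over the start of the gene at 67067360, where H3K4me3 and H3K27me3 peaks were listed in both conditions. Peak lists were called per library, and their scores and numbers depend on depth, so these shares compare gene sets within the lists.

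Some called genes lay near another gene called in the same direction. Within 200000 bp, 14 of 127 higher genes (11%) had another higher gene, against 4.94% of all genes, and 26 of 199 lower genes (13.1%) had another lower gene, against 8.64% of all genes. Ifitm1 and Sigirr on chromosome 7, Cxcl3 and Mthfd2l on chromosome 5, Scara5 and the mitotic kinase gene Pbk on chromosome 14, and Bst2 and Slc27a1 on chromosome 8 were such higher pairs. Lower pairs were Hal and Amdhd1 on chromosome 10, Aldh1a1 and Aldh1a7 on chromosome 19, Akr1b3 and Akr1b10 on chromosome 6, Hnf4a and Ada on chromosome 2, and Dync2li1 and Plekhh2 on chromosome 17. Some pairs are copies of 1 gene, such as the aldehyde dehydrogenases and aldose reductases, and fragments may be shared between them.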

How the data were processed

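RNA-seq of LEPC cells was compared between the miR-93-5p library and the scr library, 1 each. Values are FPKM per assembled locus with bounds, per the file headers. Per the submitters' processing notes, TopHat2, Cufflinks, Cuffdiff, Bowtie, MACS, CASAVA 1.4 and build mm9 were used; settings are not given in the sources used here. The peak lists hold the authors' score for each peak, from 50 upward. Locus and peak starts were found to count from 0 and are printed counting from 1. No count table was used, and depth was read from the deposited intervals as implied fragments (the squared ratio of FPKM to its SD, with the distance from FPKM to the upper bound taken as 2 SD). Among loci under 40 implied fragments, 58.1% in miR-93-5p and 59.4% in scr lay within 0.1 of a whole number. These intervals cover counting error and isoform assignment within a library only.

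Loci were matched to mm9 gene loci that the pulldown files of the series list, by mutual best overlap with at least 0.5 of the joint length in common. Of 35620 identifiers 31023 had a symbol. FPKM ratios were taken on the log2(FPKM + 1) scale, over genes with a mean of at least 1 FPKM, and understate changes of low genes. Implied fragments were rescaled so that the median log2 ratio was 0, 10 was added and at least 3 were required, which left 8379 genes. Start sites took their strand from RefSeq. The assembled pulldown loci were named through RefSeq genes of GRCm38.p6, since their coordinates fit that build. Python 3.11.15, numpy 2.4.6, pandas 2.3.3 and matplotlib 3.10.9 were used, and the calling rule was run on simulated data. The simulation held counting error alone, and a changed model length left the fragments unchanged. It therefore could not check fragments shared between isoforms, models that lose fragments or variation between libraries.

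The named genes were the 20 called genes with the largest ratio in each direction, up to 4 members of each list with the largest ratio and any called member, the 6 largest FPKM ratios in each direction without a fragment difference, the 8 highest genes with a locus in 1 library alone, and Cdkn1a, Mcm7, E2f1 and Tgfbr2. Some genes that this rule names are not reported here. Genes named for their peaks or neighbours, list members outside that rule, and Ms4a4b, Pcolce2 and Aebp1 were chosen after their values were seen. The members, the 50 gene lists and the rules were chosen with earlier results of these data known. Seed matches in transcripts were planned and not run, since transcript ends were not used here.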

Additional observations from a re-analysis of the deposited data

How the results depend on the processing

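Counts below give higher genes first and lower genes after, against 127 and 199. With a pseudocount of 5 they were 52 and 98, with 2-fold in FPKM alone 259 and 335, with intervals apart as well 255 and 323, with 2-fold in implied fragments alone 641 and 667, and with a 1.5-fold limit in both measures 482 and 473. The share of higher genes among those called was 39.0%, and it was 49.0% with fragments alone and 50.5% at 1.5-fold. The other alternatives stayed within 1.5 times: a pseudocount of 0.1 (165 and 242), no filter on FPKM (127 and 199), a mean of at least 5 FPKM (87 and 141), an overlap of at least 0.9 (91 and 137), ratios rescaled to a median of 0 (118 and 208), loci matched directly (166 and 255 of 11279) and loci sharing at least 0.9 of their joint length (104 and 160). All 127 and 199 genes were among those called with a pseudocount of 0.1 and with 1.5-fold. Both settings are looser than the rule, so this outcome was fixed in advance and is no check of the calls. No named gene that was called changed sign under the alternatives run, none of which could reverse a called difference. With rescaling 3 (Plin4, Slc7a1 and Spp1) went below the limit. In fragments 91 of the named genes that were not called moved by more than 2 counting errors, and 6 of 48 list medians moved by more than 0.25. Called genes are 2-fold apart in fragments by the rule itself. No paired analysis was possible because each condition had 1 library, and no library could be left out. Depth is known only through the deposited intervals.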

Other observations

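Libraries of mRNA recovered with the microRNA gave a further value for some called genes, with 1 library each. The pulldown FPKM plus 1 of miR-93-5p over scr had a median log2 ratio of -0.393 over the 52 higher genes with a value, of -0.786 over the 85 lower genes and of -0.475 over all 4654 genes. At least 2-fold enrichment was found for 6 of the 52 (11.5%) and 7 of the 85 (8.24%), against 11.9% of all genes. Ifitm1, the gene with the largest RNA-seq ratio, had 6.71 FPKM in the miR-93-5p pulldown and 65.8 in the scr pulldown.

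Other motifs were searched on both strands of the promoters. The AP-1 core (TGACTCA or TGAGTCA) was in 9.38% of 96 promoters of higher genes, 5.56% of 144 promoters of lower genes and 4.38% of all 7009, with Sphk1, Gja1, Il1rn, Dclk1 and Slc7a1 among the higher genes. The RFX core (GTTGCCA or TGGCAAC) was in 2.08% of higher, 6.25% of lower and 4.34% of all promoters, with Hnf4a and Ddc among the lower genes.

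In the mutant library, which shares the scr library as its control, Ifitm1 was at 22.9 FPKM, Scara5 at 3.98, Akr1c18 at 21.0, Il1rn at 26.2, Hnf4a at 27.4, Anks4b at 17.4, Dqx1 at 87.1, Hpx at 1.15, Hp at 0.59 and Lbp at 3.88. These genes were chosen after their values were seen and do not stand for the called genes as a whole.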
